A study of Mus musculus with 4 samples.

Results

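The 41 genes described here were listed as vessel genes and read in the whole mouse urogenital sinus (UGS), so the cells behind their transcripts were not identified. Of these, 32 are genes of blood endothelium, 3 are genes of lymphatic endothelium and 6 are genes of pericytes, out of 25819 rows of the deposited expression matrix. A row was taken where its gene symbol was on the list, and each of the 41 symbols had 1 row. The blood endothelial genes comprise 9 receptors, 9 junction and surface proteins, 6 ligands and secreted proteins, 1 enzyme and 7 regulators of transcription.

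Endothelial cells line every vessel and are held together by junction proteins of the cadherin, claudin and immunoglobulin families. Vascular endothelial growth factor drives their growth through receptor tyrosine kinases, while Notch ligands, apelin and the angiopoietins shape sprouts, arteries and veins. Pericytes lie on the outer face of capillaries, are recruited by platelet-derived growth factor B from the endothelium, and share many contractile and ion channel genes with smooth muscle.

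The UGS is the embryonic tube of epithelium and mesenchyme from which the prostate buds, and *Tbx18* encodes a T-box transcription factor of mesenchyme. Whole UGS of male embryos was compared between Tbx18Gfp/Gfp mutants, homozygous for a GFP knock-in that makes the allele null, and wild type littermates. Samples were taken on embryonic days E16.5, before prostate buds appear, and at E18.5, once budding is under way. RNA of 3 embryos was pooled for each of the 4 libraries, and the mouse lines were kept on a B6C3-F1 hybrid background. The allele was carried by every cell of the mutant embryos, and vessels were not separated from the tissue around them.

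There was 1 library per genotype and stage, so no replicate error exists within a stage, no test between genotypes could be made at 1 stage alone, and every ratio below compares 2 libraries rather than 2 genotypes. A fit of genotype across both stages is given after the E18.5 comparison. Levels are in FPKM, which divide the reads on a gene by its transcript length and by the mapped reads of the library, so levels of different genes can be set side by side. From the values that single reads give, mapped reads were estimated at 64000000 for E16.5 wild type and 55700000 for E16.5 Tbx18Gfp/Gfp, against 29000000 for E18.5 wild type and 52400000 for its mutant counterpart. An estimated 73 to 9563 reads stood behind each value of a vascular gene. The 95% counting interval of a log2 ratio reached a median of 0.11 to each side at E16.5 and of 0.16 at E18.5, and covers counting error only. *Tbx18* itself had 3.47 FPKM in wild type and 2.50 in Tbx18Gfp/Gfp UGS at E16.5, and 3.16 and 2.93 at E18.5. The deposited values do not say which part of the gene these reads came from.

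The E18.5 wild type library stood apart from the other 3 and entered every E18.5 comparison. Over all genes that reached 1 FPKM in each library of a pair, the median log2 ratio of mutant over wild type was 0.01 at the earlier stage and 0.29 at the later. The E18.5 ratio also followed the GC content of the transcript over all genes (Spearman's rho across 13810 genes 0.45), which the E16.5 ratio hardly did (0.02 across 13859 genes). E18.5 ratios are therefore also given relative to the median of 0.29, and with a trend subtracted that was fitted over all genes on length and then on GC content.

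The markers were present in all 4 libraries. Every one of the 41 genes had reads in each library, and in E16.5 wild type 40 of them reached 1 FPKM, from 2.0 FPKM for *Nos3* to 38.6 FPKM for *Mcam*. *Tal1*, a regulator shared with blood cell precursors, was the exception with 0.851 FPKM. The summed level of the 32 blood endothelial genes was 322 FPKM in E16.5 wild type, 378 in E16.5 Tbx18Gfp/Gfp, 280 in E18.5 wild type and 354.4 in E18.5 Tbx18Gfp/Gfp. The 6 pericyte genes summed to 121, 128, 94.0 and 151 FPKM in the same order, and the 3 lymphatic genes to 11.6, 13.8, 15.6 and 16.4 FPKM. In bulk tissue, fewer cells of a type and less RNA per cell cannot be told apart.

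**Figure D1:**
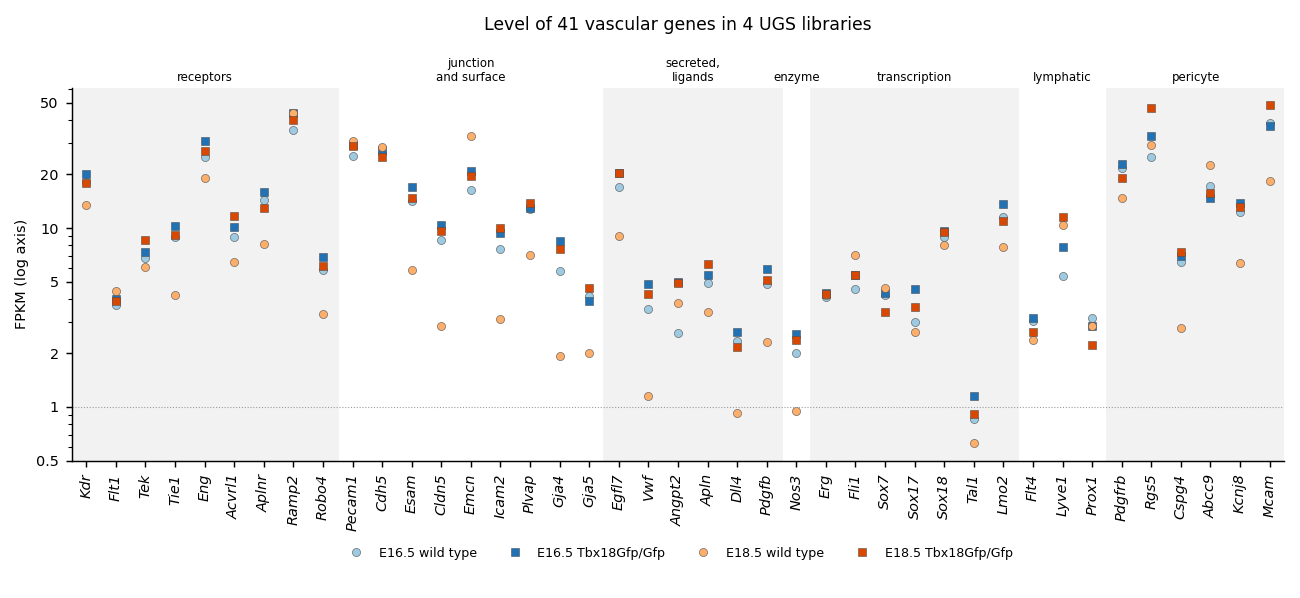
FPKM of each of the 41 vascular genes (log axis) in the 4 libraries, ordered by role; circles are wild type and squares Tbx18Gfp/Gfp, blue is E16.5 and orange E18.5, and the dotted line marks 1 FPKM. The E18.5 wild type library is the lowest of the 4 for 28 of the 41 genes, and the other 3 libraries lie close together for most of them.

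Below, 4 values of a gene are in the order wild type then Tbx18Gfp/Gfp at E16.5, followed by wild type then Tbx18Gfp/Gfp at E18.5. Among the receptors, *Kdr*, the main signalling receptor for vascular endothelial growth factor, had 18.1, 20.1, 13.4 and 17.9 FPKM. *Flt1*, which binds the same ligand and can act as a decoy, had 3.73, 3.99, 4.45 and 3.91 FPKM. *Flt1* was thus read at a lower level than *Kdr* in every library, and at E18.5 the mutant over wild type ratio was 1.34 for *Kdr* and 0.877 for *Flt1*, with both below 1 once the library sums were made equal. *Tek*, the angiopoietin receptor, had 6.81, 7.36, 6.04 and 8.55 FPKM. Its orphan relative *Tie1* had 8.95, 10.3, 4.20 and 9.10 FPKM, with 3 libraries near one another and the E18.5 wild type library below them. *Tie1* was the only receptor of the 9 past 2-fold at E18.5, at 2.17-fold higher in the mutant.

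Among the receptors for ligands of the TGF-β and BMP family, the coreceptor gene *Eng* had 24.8, 30.7, 19.1 and 27.0 FPKM. The gene for its partner kinase, *Acvrl1*, had 8.92, 10.1, 6.49 and 11.7 FPKM. Both were lowest in E18.5 wild type, and the E18.5 ratio was 1.41 for *Eng* and 1.80 for *Acvrl1* (log2 0.50 and 0.85). With the length and GC trend subtracted these log2 ratios were −0.16 for *Eng*, now lower in the mutant, and 0.26 for *Acvrl1*. The apelin receptor gene *Aplnr* had 14.4, 15.9, 8.16 and 13.0 FPKM, and the guidance receptor gene *Robo4*, which steadies vessels, had 5.79, 6.92, 3.32 and 6.16 FPKM. *Ramp2*, which makes the calcitonin-receptor-like protein respond to adrenomedullin, was the most abundant receptor gene at 35.1, 44.1, 43.7 and 40.0 FPKM. Unlike most receptors it was not low in E18.5 wild type, where its value lay between those of the 2 mutant libraries.

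The junction and surface genes split most widely. *Pecam1*, a platelet and endothelial adhesion molecule, had 25.1, 29.1, 30.6 and 28.9 FPKM, and *Cdh5*, the endothelial cadherin, had 26.3, 27.3, 28.4 and 25.0 FPKM. These pan-endothelial genes varied by 1.22-fold and 1.14-fold between the highest and lowest of the 4 libraries. By contrast *Esam*, an adhesion molecule of the tight junction, had 14.1, 16.8, 5.79 and 14.7 FPKM. *Cldn5*, the endothelial claudin, had 8.57, 10.4, 2.84 and 9.68 FPKM, and *Icam2*, an adhesion molecule for leukocytes, had 7.62, 9.36, 3.12 and 9.99 FPKM. In each of *Esam*, *Cldn5* and *Icam2* the E18.5 wild type value was at least 2-fold below that of each other library, while the other 3 libraries lay within 1.31-fold of one another.

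Both connexin genes of arterial endothelium were also lowest in E18.5 wild type. *Gja4* had 5.73, 8.52, 1.93 and 7.59 FPKM, and *Gja5* had 4.17, 3.93, 2.0 and 4.65 FPKM. *Gja4* had the widest spread of all 41 genes, 4.41-fold between its highest and lowest library. *Plvap*, which forms the diaphragms of fenestrated endothelium, had 12.7, 12.9, 7.03 and 13.7 FPKM. *Emcn*, a sialomucin of veins and capillaries, differed from these with 16.4, 20.9, 32.5 and 19.5 FPKM. The E18.5 wild type library was the highest for *Emcn* and the lowest for the connexins and *Plvap*.

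The ligand and secreted genes were lowest in E18.5 wild type with 1 exception. *Egfl7*, a secreted factor laid down around the endothelium, had 16.9, 20.2, 9.04 and 20.3 FPKM, and *Vwf*, the clotting glycoprotein stored in endothelium, had 3.51, 4.84, 1.16 and 4.26 FPKM. *Apln*, the apelin ligand of sprouting cells, had 4.92, 5.44, 3.40 and 6.32 FPKM. *Dll4*, the Notch ligand of tip cells and arteries, had 2.34, 2.62, 0.925 and 2.17 FPKM. *Pdgfb*, whose product draws in pericytes, had 4.85, 5.94, 2.30 and 5.15 FPKM. *Angpt2*, the angiopoietin that loosens vessels, was the exception, lowest in E16.5 wild type, with 2.61, 4.98, 3.81 and 4.94 FPKM. The single enzyme gene, *Nos3*, for the endothelial nitric oxide synthase, had 2.0, 2.54, 0.951 and 2.36 FPKM, again lowest in E18.5 wild type.

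The transcription factor genes varied less. *Erg* and *Fli1* encode ETS factors that keep endothelial identity, and *Erg* had 4.11, 4.32, 4.22 and 4.25 FPKM, the narrowest spread of the 41 genes at 1.05-fold. *Fli1* had 4.59, 5.47, 7.07 and 5.45 FPKM, highest in E18.5 wild type. Of the SoxF genes, which act in arteries and lymphatics, *Sox7* had 4.22, 4.33, 4.64 and 3.41 FPKM. *Sox17* had 2.99, 4.57, 2.63 and 3.60 FPKM, and *Sox18* had 8.89, 9.58, 8.06 and 9.56 FPKM. *Sox7* was highest in the library in which *Sox17* and *Sox18* were lowest. *Lmo2*, a bridging protein shared with blood precursors, had 11.5, 13.7, 7.79 and 10.9 FPKM, and *Tal1* had 0.851, 1.15, 0.628 and 0.918 FPKM, below the minimum of 1 FPKM in both E18.5 libraries.

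Of the lymphatic genes, *Flt4*, the receptor for lymphatic growth factors, had 3.02, 3.14, 2.36 and 2.62 FPKM. *Prox1*, the regulator of lymphatic identity, had 3.16, 2.85, 2.83 and 2.23 FPKM. *Lyve1*, a hyaluronan receptor of lymphatic vessels that some tissue macrophages also carry, had 5.43, 7.84, 10.4 and 11.5 FPKM. The 3 genes therefore did not run together, since *Lyve1* was higher in both E18.5 libraries than in both E16.5 libraries while *Flt4* and *Prox1* were lower. This order is that of the unscaled levels. In wild type the log2 ratio of E18.5 over E16.5 relative to the median of all genes was 1.27 for *Lyve1*, −0.02 for *Flt4* and 0.17 for *Prox1*.

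Among the pericyte genes, *Pdgfrb*, the receptor for platelet-derived growth factor B, had 21.6, 22.8, 14.7 and 19.1 FPKM. *Rgs5*, a regulator of G protein signalling in mural cells, had 24.8, 32.6, 29.1 and 47.0 FPKM, and *Cspg4*, a surface proteoglycan of pericytes, had 6.49, 6.94, 2.75 and 7.31 FPKM. *Rgs5* was higher in the mutant at both stages, by 1.32-fold and 1.61-fold. *Mcam*, a surface adhesion molecule of pericytes, endothelium and smooth muscle, had 38.6, 37.0, 18.4 and 48.9 FPKM. The last pair encode the subunits of a potassium channel gated by ATP, the pore *Kcnj8* with 12.4, 13.8, 6.35 and 13.1 FPKM and the sulfonylurea receptor *Abcc9* with 17.2, 14.6, 22.6 and 15.6 FPKM. *Kcnj8* was lowest, and *Abcc9* highest, in E18.5 wild type.

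These spreads can be set side by side. The highest library exceeded the lowest by 1.05-fold to 4.41-fold over the 41 genes, with a median of 1.90-fold, and by at least 2-fold for 16 genes. Without the E18.5 wild type library the spread was 1.05-fold to 2.12-fold, with a median of 1.22-fold, and *Lyve1* was the only gene of at least 2-fold. By place in the order, E18.5 wild type was the lowest library for 23 of the 32 blood endothelial genes and 4 of the 6 pericyte genes, and E16.5 Tbx18Gfp/Gfp was the highest for 19 of the 32.

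At E16.5 the blood endothelial genes lay slightly but broadly higher in the Tbx18Gfp/Gfp library. Of the 32 genes 31 had a ratio above 1, *Gja5* being the exception at 0.942, and the median log2 ratio was 0.25. Of all 14761 genes that reached 1 FPKM in 1 of these libraries or both, 54.2% were higher and the median was 0.01. The receptors were higher for 9 of 9 (median 0.18), the junction and surface genes for 8 of 9 (0.26), the ligands and secreted proteins for 6 of 6 (0.27) and the transcription regulators for 7 of 7 (0.25). Among the genes counted as higher, the counting interval included 0 for *Flt1*, *Plvap*, *Dll4*, *Erg*, *Sox7* and *Sox18*. With the library sums made equal the median was 0.14 and 26 of the 32 were higher, against 22.4% of all genes. The genes then lower were *Cdh5*, *Erg*, *Flt1*, *Gja5*, *Plvap* and *Sox7*. With the other scalings and with the GC trend subtracted 30 or 31 were higher, against 49.4% to 55.3% of all genes.

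The differences at E16.5 were small for nearly every gene. At least 1.5-fold higher in the mutant were 2 of the 41 genes, against 1.44% of all genes, and none was at least 1.5-fold lower, against 2.72%. *Angpt2* was 1.91-fold higher (log2 0.94, counting interval 0.78 to 1.09) and *Sox17* was 1.53-fold higher (log2 0.61, interval 0.45 to 0.77). *Gja4* lay just below this threshold at 1.49-fold, and *Lyve1* followed at 1.44-fold and *Vwf* at 1.38-fold. No vascular gene reached 2-fold in either direction, where 0.481% of all genes were higher and 1.17% lower. At the other end, *Abcc9* had a log2 ratio of −0.24, *Prox1* of −0.15, *Gja5* of −0.09 and *Mcam* of −0.06.

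Markers of some other cell types also differed between these E16.5 libraries. All 6 of the erythroid markers that passed the filter were higher in the mutant, by 0.37 to 0.79 on the log2 scale, and the 7 found summed to 17926 FPKM for wild type against 28871 FPKM. The 6 leukocyte markers that passed were also all higher, from 32.6 to 40.4 FPKM in sum over 7. The 6 platelet markers summed to 13.5 and 16.2 FPKM, but only 2 passed, 1 higher (log2 0.31) and 1 lower (−0.12). The 6 smooth muscle markers were all lower, by 0.28 to 1.95, from 1072 to 563 FPKM in sum. Glial markers summed to 43.4 and 38.6 FPKM and epithelial markers to 275 and 271 FPKM. The part of blood content or of tissue make-up in the vascular ratios was not tested.

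The pericyte genes at E16.5 showed no common direction. Of the 6, 4 were higher (*Rgs5* with log2 0.40, *Kcnj8* with 0.16, *Cspg4* with 0.10 and *Pdgfrb* with 0.08) and 2 lower, with a median of 0.09. With the library sums made equal the median was −0.018 and 2 of the 6 were higher, against 22.4% of all genes. *Rgs5* stayed the highest of them, and its counting interval ran from 0.35 to 0.45.

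At E18.5 the same comparison gave far wider differences. Of the 40 vascular genes that passed the filter, 31 were higher in the Tbx18Gfp/Gfp library and 9 lower, where 69.5% of all 14733 genes were higher. At least 1.5-fold higher were 20 of 40 (33.2% of all genes) and at least 1.5-fold lower was 1 of 40, *Emcn* (7.6%). At least 2-fold higher were 14 of 40, against 15.1% of all genes, and none was at least 2-fold lower, against 2.89%. The median log2 ratio was 0.67 for 31 blood endothelial genes and 0.87 for the 6 pericyte genes, and 0.31 over all genes. Relative to the median shift of the library pair these became 0.38 and 0.58, and with the length and GC trend subtracted 0.28 and 0.61. Of the 31 blood endothelial genes 24 were higher. Under the other scalings and with the trend subtracted 20 to 22 were higher, against 42.7% to 53.0% of all genes.

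The genes past 2-fold at E18.5 fell unevenly over the roles. They were 5 of the 9 junction and surface genes (*Gja4*, *Cldn5*, *Icam2*, *Esam* and *Gja5*), 4 of the 6 ligand and secreted genes (*Vwf*, *Dll4*, *Pdgfb* and *Egfl7*), *Nos3*, 1 of the 9 receptors (*Tie1*), 3 of the 6 pericyte genes (*Mcam*, *Cspg4* and *Kcnj8*), none of the 6 transcription regulators that passed and none of the 3 lymphatic genes. *Gja4* was highest at 3.93-fold (log2 1.98, counting interval 1.64 to 2.33), then *Vwf* at 3.69-fold (1.88, interval 1.70 to 2.07), *Cldn5* at 3.41-fold (1.77, interval 1.46 to 2.09) and *Icam2* at 3.21-fold (1.68, interval 1.37 to 2.01). *Kcnj8*, at 2.06-fold, was the gene nearest above the threshold and *Plvap*, at 1.95-fold, the nearest below it. With the trend subtracted, *Vwf* (1.55), *Gja4* (1.10) and *Icam2* (1.02) remained past 2-fold, and *Cldn5* stood at 0.80.

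Other blood endothelial genes, among them the cadherin and adhesion molecule most used as markers, had E18.5 ratios near or below 1. The log2 ratio was −0.08 for *Pecam1*, −0.19 for *Cdh5*, −0.19 for *Flt1*, −0.13 for *Ramp2* and 0.01 for *Erg*, which the median centring puts at −0.37, −0.48, −0.48, −0.42 and −0.28. *Fli1* (−0.38) and *Sox7* (−0.44) were lower still, with counting intervals of −0.52 to −0.23 and −0.63 to −0.26. *Emcn* had the lowest ratio of the 41 genes, 1.67-fold lower in the mutant (log2 −0.74, interval −0.83 to −0.66), and passed 2-fold relative to the median, at −1.03. *Ramp2* did so with the trend subtracted, at −1.08. The transcription regulators as a group had a median of 0.13, or −0.16 after median centring and −0.42 with the trend subtracted.

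Several E18.5 directions depended on the scaling. *Erg*, *Sox18*, *Flt4* and *Lyve1* were lower in the mutant after median centring, *Angpt2*, *Kdr* and *Pdgfrb* also with the library sums made equal, and *Eng*, *Lmo2* and *Pdgfrb* with the trend subtracted.

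Across both stages, an additive fit of genotype and stage over the 4 libraries left 1 residual degree of freedom, which holds the difference between stages in the genotype ratio. With limma on log2(FPKM + 1), 0 of the 41 vascular genes passed an adjusted p of 0.05, against 9 of all 15023 genes (0.0599%). At an unadjusted p under 0.05 there were 6 of 41, against 5.17% of all genes, namely *Gja4*, *Vwf*, *Cldn5*, *Icam2*, *Esam* and *Egfl7*. *Gja4* had the smallest adjusted p, 0.678, with a difference between mutant and wild type of 1.03 ± 0.31 (SE) on this scale. This SE and these p-values used a variance moderated over all genes, with 16.7 prior degrees of freedom beside the 1 residual. They therefore rest mostly on the spread of other genes. The fit took values without centring or a trend subtracted, so the E18.5 median shift of 0.29 and its relation to GC content enter it. The 6 genes were each lowest in E18.5 wild type. They were more than 2-fold higher in the mutant at E18.5, and 1.19-fold to 1.49-fold higher at E16.5. The fit was chosen after the values were seen.

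**Figure D2:**
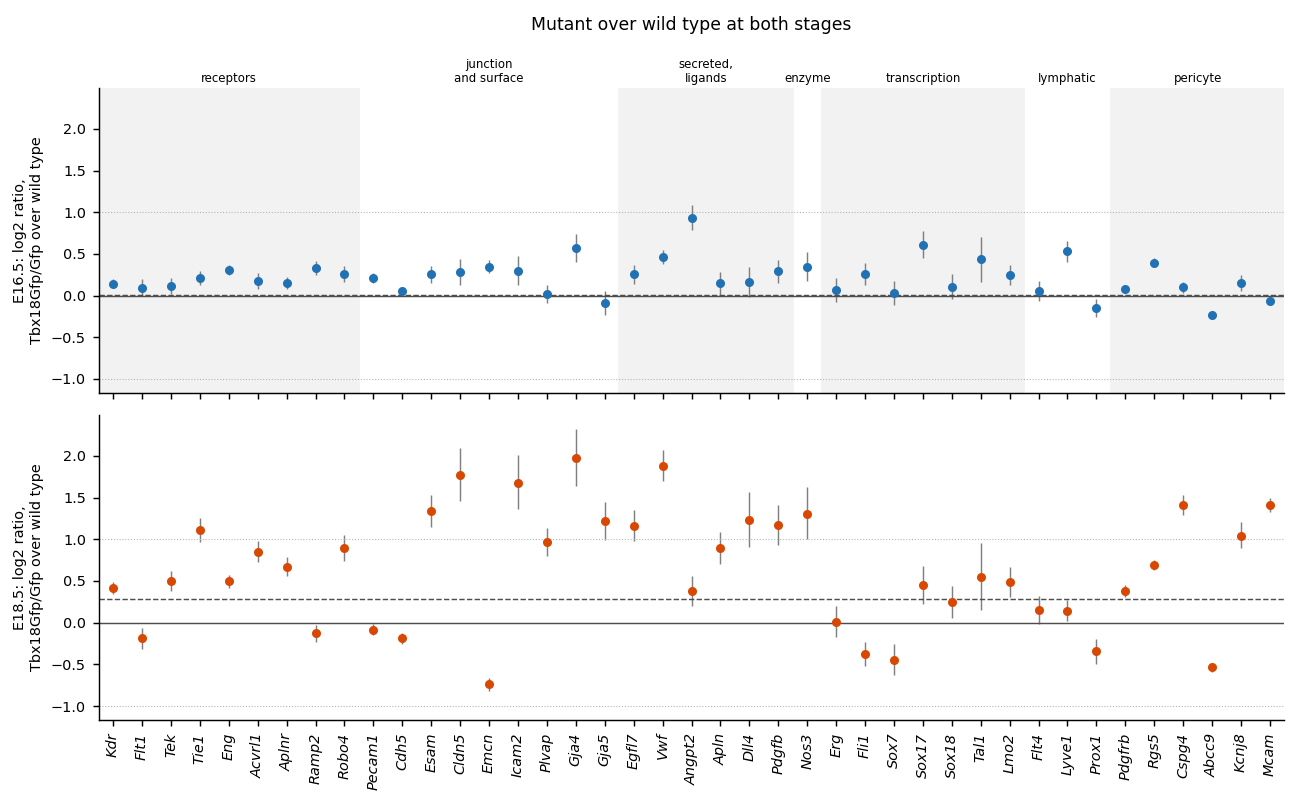
Log2 ratio of Tbx18Gfp/Gfp over wild type for the 41 genes at E16.5 (upper panel) and E18.5 (lower panel), 1 library each; bars are 95% counting intervals and do not hold variation between embryos, dashed lines mark the median of all genes (0.01 and 0.29), and dotted lines mark 2-fold. Ratios at E16.5 lie between −0.24 and 0.94, and those at E18.5 between −0.74 and 1.98. The junction and surface genes hold both the highest E18.5 ratio (*Gja4*) and the lowest (*Emcn*).

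The E18.5 ratios of the vascular genes followed the base composition of their transcripts. The 9 genes with at most 50% GC had log2 ratios of −0.74 to 0.69, a median of 0.14 and no gene at least 2-fold higher. The 16 genes with 50% to 55% GC had a median of 0.58 with 5 past 2-fold, and the 15 genes above 55% GC a median of 1.16 with 9 past it. All genes in the same classes had medians of 0.09, 0.43 and 0.76, and 4.32%, 16.3% and 33.3% of them were at least 2-fold higher. Across the 40 vascular genes Spearman's rho of the E18.5 ratio with GC content was 0.57, and at E16.5 it was 0.06 across 41, where all points share the same library pair.

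Within a GC class the genes still spread widely. Above 55% GC, *Gja4* and *Cldn5* lay at 1.98 and 1.77, while *Sox18* and *Ramp2*, with GC contents of 60.9% and 60.1%, lay at 0.25 and −0.13. *Rgs5* had the lowest GC content of the 41 genes, 41.1%, and a log2 ratio of 0.69, which the trend left at 0.69. *Emcn* at 41.5% GC lay at −0.74, and at −0.85 with the trend subtracted. *Pecam1* (50.2% GC) and *Aplnr* (50.7% GC), nearly alike in composition, lay at −0.08 and 0.67.

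**Figure D3:**
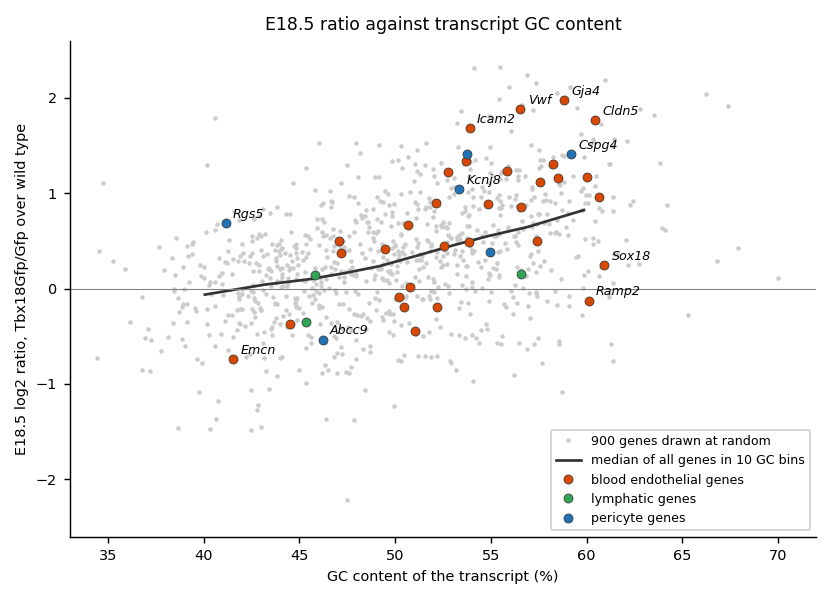
E18.5 log2 ratio of Tbx18Gfp/Gfp over wild type against the GC content of the transcript, for 40 vascular genes (coloured by cell type) over 900 genes drawn at random (grey; 7 of them lie beyond the axis) and the median of all genes in 10 bins of GC content (line). The line climbs from −0.06 in the lowest bin to 0.82 in the highest, the vascular genes climb with it, and *Rgs5*, *Vwf* and *Icam2* lie well above it while *Emcn*, *Sox18* and *Ramp2* lie below.

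The promoters of the genes with the highest and the lowest E18.5 ratios are shown to compare their composition and their ETS-type letters, *Erg* and *Fli1* being ETS factors. RefSeq windows (GRCm38.p6) of 300 bases, lying mostly upstream of a transcript start, were held for 22 of the 41 genes, in 28 windows. Of the genes with a window, *Gja4* and *Cldn5* had the highest ratios and *Emcn* the lowest. The letters CAGGAA were searched on both strands, and capitals mark them or their reverse complement TTCCTG.
Gja4, chr4:127313990-127314289, minus strand: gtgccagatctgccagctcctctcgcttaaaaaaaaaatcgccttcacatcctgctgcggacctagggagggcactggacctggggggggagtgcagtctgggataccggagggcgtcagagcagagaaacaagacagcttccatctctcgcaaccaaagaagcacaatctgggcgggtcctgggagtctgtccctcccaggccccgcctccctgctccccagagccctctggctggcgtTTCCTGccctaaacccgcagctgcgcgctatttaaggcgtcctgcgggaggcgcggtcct
Cldn5, chr16:18776597-18776896, plus strand: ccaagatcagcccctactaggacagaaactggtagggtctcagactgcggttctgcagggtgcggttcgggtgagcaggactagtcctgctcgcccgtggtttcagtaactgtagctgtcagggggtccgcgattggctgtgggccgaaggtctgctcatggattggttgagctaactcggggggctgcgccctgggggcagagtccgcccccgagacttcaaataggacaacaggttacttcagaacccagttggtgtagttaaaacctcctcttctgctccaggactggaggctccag
Emcn, chr3:137340828-137341127, plus strand: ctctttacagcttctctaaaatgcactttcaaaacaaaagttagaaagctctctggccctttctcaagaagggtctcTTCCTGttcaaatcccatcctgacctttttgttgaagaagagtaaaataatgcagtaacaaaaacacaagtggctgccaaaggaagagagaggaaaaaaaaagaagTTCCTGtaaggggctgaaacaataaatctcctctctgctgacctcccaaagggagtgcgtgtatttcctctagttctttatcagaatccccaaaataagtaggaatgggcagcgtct
The *Gja4* window held 62% GC and 1 match, the *Cldn5* window 58.33% GC and no match, and the *Emcn* window 41% GC and 2 matches. Over all members 13 of 28 windows (46.4%) held the letters, against 30.55% of 32851 windows of this length, and the SOX-type letters ACAAT were in 8 of 28 (28.6%) against 31.02%. The median GC content was 59.5% for the 28 windows and 52.7% for all. A match is a description of letters and not a bound site.

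Several pairs lay close on a chromosome in the deposited coordinates, whose genome build is not given in the sources used here. *Kcnj8* and *Abcc9*, on chromosome 6 with 16505 bases between them, had E18.5 log2 ratios of 1.05 and −0.54. *Icam2* and *Pecam1*, on chromosome 11 with 271576 bases between them, had 1.68 and −0.08. *Robo4* and *Esam*, on chromosome 9 with 114066 bases between them, had 0.89 and 1.34. The channel subunits thus lay on opposite sides of 0 at E18.5, and with the trend subtracted *Kcnj8* stood at 0.53 and *Abcc9* at −0.47.

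The pericyte genes at E18.5 were higher for 5 of 6. *Cspg4* and *Mcam* were each 2.66-fold higher (log2 1.41, counting intervals 1.29 to 1.54 and 1.33 to 1.49), *Kcnj8* was 2.06-fold and *Rgs5* 1.61-fold higher. *Pdgfrb* was 1.30-fold higher, or 0.09 on the log2 scale after median centring and −0.02 with the trend subtracted. The smooth muscle markers, with which pericytes share genes, were all higher in the mutant at this stage, by 0.77 to 2.16, and summed to 1256 FPKM for wild type against 3478 FPKM. Their part in the pericyte ratios was not tested. At E16.5, when these markers summed to 1072 and 563 FPKM, *Mcam* was at 38.6 and 37.0 FPKM.

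Erythroid and platelet markers also differed at E18.5. The 6 erythroid markers that passed were all higher in the mutant, by 0.20 to 2.94, and the 7 found summed to 5861 FPKM for wild type against 28491 FPKM. The markers of platelets, which also hold *Vwf*, summed to 9.52 and 20.1 FPKM, and *Gp9* was listed at 0 in E18.5 wild type. Leukocyte markers summed to 31.98 and 39.97 FPKM, epithelial markers to 242 and 327 FPKM and glial markers to 34.0 and 36.3 FPKM. Median log2 ratios were 0.28 for 6 leukocyte, 0.03 for 5 epithelial and 0.07 for 6 glial markers that passed, against 0.31 over all genes. Relative to the median shift they were −0.007, −0.26 and −0.22. Of the 5 epithelial markers 2 were at least 1.5-fold higher and 2 at least 1.5-fold lower. The part of these marked cell types in the endothelial ratios was not tested.

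**Figure D4:**
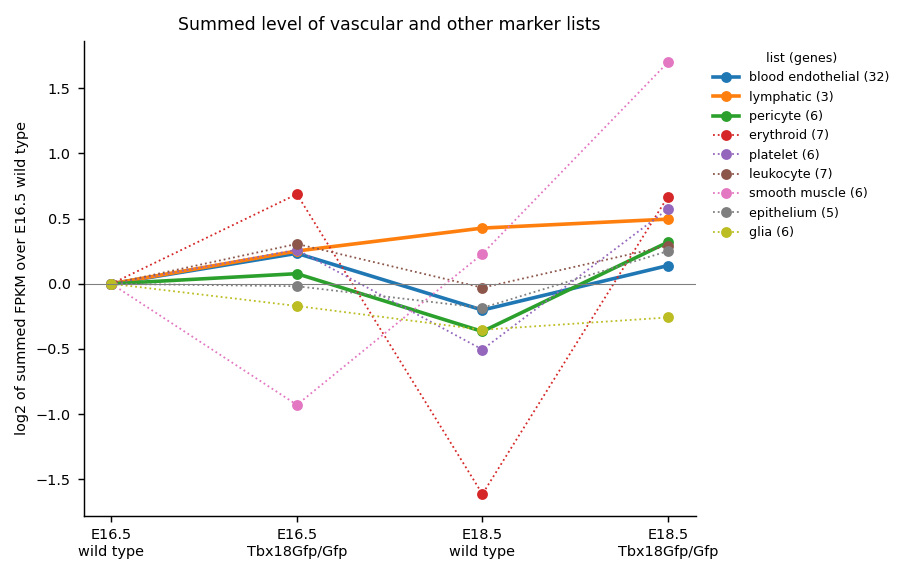
Log2 of the summed FPKM of the vascular gene lists (solid) and of marker lists of other cell types (dotted) over the E16.5 wild type library, with the number of genes in each list. The blood endothelial sum stays between 280 and 378 FPKM and the lymphatic sum between 11.6 and 16.4 FPKM, while the erythroid and smooth muscle sums range from 5861 to 28871 and from 563 to 3478 FPKM.

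The lymphatic genes differed little by genotype at E18.5. *Flt4* had a log2 ratio of 0.15, *Lyve1* of 0.14 and *Prox1* of −0.35, and after median centring all 3 were lower in the mutant, at −0.14, −0.14 and −0.63. *Prox1* was lower in the mutant at both stages, by 1.11-fold and 1.27-fold, and stayed on that side under every scaling.

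Between stages, the wild type and mutant libraries gave different pictures. In wild type, 12 of 40 vascular genes were at least 2-fold lower at E18.5 than at E16.5, against 16.8% of all genes, and none was at least 2-fold higher, against 2.7%. The lowest were *Vwf* at 3.03-fold, *Cldn5* at 3.02-fold and *Gja4* at 2.97-fold lower. Over all genes this wild type pair had a median log2 ratio of −0.33, and the ratio followed GC content (Spearman's rho −0.51). Relative to that median, 4 of the 40 were at least 2-fold lower and 2 higher, against 1219 and 807 of 14807 genes. With the trend subtracted 1 was lower and 3 higher, against 461 and 700 of 13890, and the median of the 40 was 0.01. In Tbx18Gfp/Gfp none of 41 was 2-fold lower, against 0.571%, and none 2-fold higher, against 1.35%, with log2 values from −0.35 (*Prox1*) to 0.56 (*Lyve1*). The wild type stage comparison and the E18.5 genotype comparison share the E18.5 wild type library, so a low value there enters both. *Esam*, for one, was 2.43-fold lower at E18.5 than at E16.5 in wild type, 1.15-fold lower in the mutant, and 2.53-fold higher in the mutant than in wild type at E18.5.

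Before any scaling, some genes differed between stages in the same direction in both genotypes. *Lyve1* was higher at E18.5 by 1.92-fold in wild type and 1.47-fold in the mutant, and *Rgs5* by 1.18-fold and 1.44-fold. *Prox1* was lower at E18.5 by 1.11-fold and 1.28-fold, and *Pdgfrb* by 1.47-fold and 1.19-fold. *Emcn* was 1.98-fold higher at E18.5 in wild type but 1.07-fold lower in the mutant. With the E18.5 wild type library left out, the E18.5 mutant library can be set only against E16.5, which confounds stage and genotype. Against E16.5 wild type, 1 of 40 genes was at least 2-fold higher, *Lyve1* at 2.12-fold (1.23% of all genes), and none was 2-fold lower (1.28%). *Gja4* was then 1.32-fold, *Vwf* 1.22-fold, *Cldn5* 1.13-fold and *Esam* 1.04-fold higher, while *Angpt2* and *Rgs5* were each 1.90-fold higher.

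Other genes of vessels were held in lists beside the 41, and over all genes 54.2% were higher at E16.5 and 69.5% at E18.5. Of 27 ligands, receptors and signalling genes of vessels, 25 passed the filter at E16.5 with 14 higher and a median log2 ratio of 0.06, and 25 at E18.5 with 13 higher and a median of 0.07, or −0.22 relative to all genes. At E16.5 *Edn1*, the endothelin precursor, was at 0.80 and *Figf*, a lymphatic growth factor, at 0.65. At E18.5 *Vegfc*, the chief lymphatic growth factor, was at 1.20, from 1.98 to 4.55 FPKM, and the Notch receptor *Notch4* at 1.18. *Vegfa* itself differed little, with 40.6, 42.3, 40.9 and 43.7 FPKM in the 4 libraries.

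Of 33 further endothelial genes, 28 passed at E16.5 with 22 higher and a median of 0.22, and 29 passed at E18.5 with 22 higher and a median of 0.47, or 0.19 relative to all genes. At E16.5 *Procr*, the endothelial protein C receptor, was at 0.72 and *Fabp4*, a fatty acid binding protein also of fat cells, at −0.67. At E18.5 the largest were *Stab1* at 1.51, *Ushbp1* at 1.48, *Aqp1* at 1.42, *Rasip1* at 1.35 and *Tm4sf1* at 1.20. *Stab1*, *Ushbp1*, *Rasip1* and *Tm4sf1* were low in E18.5 wild type beside the other libraries, as *Stab1* with 6.29, 7.62, 2.74 and 7.82 FPKM. *Aqp1*, with 9.92, 9.08, 8.34 and 22.3 FPKM, was instead high in E18.5 Tbx18Gfp/Gfp. Of 9 further genes listed as lymphatic, 7 were higher at E16.5 (median 0.33), with *Mmrn1* at 0.63 and *Reln* at 0.63. At E18.5 6 were higher, with a median of 0.03, or −0.26 relative to all genes. Among these 9, *Gata2*, *Nr2f2* and *Pdpn* had 54.8, 49.6 and 21.1 FPKM in E16.5 wild type, where *Prox1* had 3.16. The cells behind these transcripts were not tested. Of 14 further mural genes 13 passed, with 7 higher at E16.5 and 8 at E18.5 (medians 0.06 and 0.35). The E18.5 median was 0.06 relative to all genes. *Foxs1*, a forkhead gene of pericytes, was at 0.82 and 1.55, *Mustn1* at −0.97 at E16.5, and *Higd1b* at 1.47 and *Ndufa4l2* at 1.26 at E18.5.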

How the data were processed

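Whole UGS RNA of male embryos was sequenced as single-end, strand-specific poly(A) libraries, 1 pooled library for each of 2 genotypes at 2 stages, grouped by the sample titles. Per the submitters' processing notes, CASAVA 1.8.2, Trimmomatic 0.30, TopHat2 2.1.0 and Cufflinks 2.2.1 were used, and the authors deposited FPKM for 25819 rows. The genome build is not given in the sources used here. At their deposited coordinates 5 of the 41 genes overlapped the GRCm38 gene of that name, so coordinates served only for distances.

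Ratios were taken without a pseudocount where a gene reached 1 FPKM in 1 library of the pair or both, and counted at 1.5-fold and 2-fold, the folds the authors used. No test was possible within a stage, with 1 library per group. An additive fit of genotype and stage was added after the data were seen, with limma 3.58.1 (R 4.3.3, mean-variance trend, Benjamini-Hochberg adjustment) on log2(FPKM + 1) for genes of at least 1 FPKM in some library. Depth was estimated from single-read values of single-exon olfactory receptor genes, 14 to 24 per library, and Clopper-Pearson intervals of 95% were computed from the estimated reads. Transcript length and GC content came from GENCODE M21 by symbol, for 93.7% of expressed rows and all 41 genes. Alternatives were equal library sums, median centring, upper quartile scaling (75th percentile), a lowess trend (span 0.3) on length and then GC content subtracted, no filter, at least 5 FPKM, and pseudocounts of 0.1 and 1. The code of the lowess trend and of the limma fit was run on simulated data. How the fit performs on data with the spread of these libraries was not tested. The genes named are all 41, *Tbx18*, and from the other vascular lists at most 5 per list and stage past 2-fold (1.5-fold at E16.5). *Vegfa*, *Gp9*, *Gata2*, *Nr2f2*, *Pdpn* and neighbouring genes were added after their values were seen. The gene lists were chosen with earlier results of these data known. The trend came from statsmodels 0.14.6, intervals from scipy 1.17.1 and plots from matplotlib 3.10.9, under Python 3.11.15 with pandas 2.3.3 and numpy 2.4.6.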

Additional observations from a re-analysis of the deposited data

Results flagged for a closer look

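A few genes had mutant over wild type ratios on opposite sides of 1 at the 2 stages, with at least 1.5-fold at E18.5. *Emcn* had a log2 ratio of 0.35 at E16.5 and −0.74 at E18.5. *Gja5* had −0.09 and 1.22, and *Mcam* had −0.06 and 1.41. The difference between stages was not tested, since each ratio rests on 1 library per genotype, and for *Gja5* the E16.5 counting interval of −0.23 to 0.05 includes 0. All 3 E18.5 ratios use the E18.5 wild type library, in which *Emcn* was at 32.5 FPKM, *Gja5* at 2.0 FPKM and *Mcam* at 18.4 FPKM, against 16.4 to 20.9, 3.93 to 4.65 and 37.0 to 48.9 FPKM in the other libraries.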

How the results depend on the processing

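At E16.5 the count of vascular genes at least 1.5-fold higher was 2, and became 1 with library sums made equal or a pseudocount of 1, and 0 with at least 5 FPKM required (0.969%, 0.65% and 0.522% of all genes). The pericyte median at E16.5 was −0.018 with library sums made equal, where 22.4% of all genes were higher. At E18.5 the count at least 2-fold higher was 14, and became 4 with equal sums, 8 with median centring, 8 with upper quartile scaling, 3 with the trend subtracted and 8 with a pseudocount of 1, in each case a subset of the 14, where 6.07%, 8.19%, 8.77%, 3.53% and 9.26% of all genes were called. The count at least 1.5-fold higher was 11 with the trend subtracted (13.1% of all genes). At least 1.5-fold lower were 7 with equal sums, 5 with median centring, 5 with upper quartile scaling and 4 with the trend subtracted, in place of 1 (21.8%, 16.03%, 14.9% and 14.8% of all genes), and 1 gene was 2-fold lower under each of these (7.83%, 5.42%, 5.09% and 5.23%), *Emcn* in the scalings and *Ramp2* with the trend. In the same order the E18.5 blood endothelial median was 0.25, 0.38, 0.41 and 0.28, and the pericyte median 0.44, 0.58, 0.61 and 0.61. The E16.5 blood endothelial median ranged from 0.14 with equal sums to 0.25. Among values of single genes under these alternatives 315 stayed within their counting interval, 177 lay outside it and 0 of those past 1.5-fold changed sign. With stage as a replicate block over the 4 libraries, limma called 0 of the 41 genes and 6 at an unadjusted p under 0.05. No replicate could be left out, with 1 library per genotype and stage. The E18.5 wild type library had the least depth, 29000000 reads, and no second library bears on its values. The authors report RT-qPCR of several genes on individual UGS samples at both stages, with results close to the pooled fold changes. Whether any of the 41 genes was among them was not examined here.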
